A study of Mus musculus with 71 samples.

Results

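Whole blood RNA of 12 HOCl mice that received D06 was set against that of 12 HOCl mice that received no agent, out of 71 mice in 6 groups. Members were chosen by the treatment and group names in the labels, and every gene of the deposited tables was examined. All 12 D06 mice had both counts and normalised values, while 12 untreated HOCl mice had counts and 11 had normalised values, since HOCl mouse 8 is a column of the count table alone. D06 is known here by its label only. The series title speaks of inhibitors of galectin-3 (Gal-3) that are monoclonal antibodies (mAb), but the study's text does not name D06, so its dose, route and nature are not given in the sources used here.

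All mice were female BALB/c AnNRj animals, 6 weeks of age at inclusion. Untreated HOCl mice and D06 mice both carried the hypochlorous acid (HOCl) model of systemic sclerosis, which was induced by intradermal injections into the back on 5 days a week for 6 weeks. The 11 control mice received phosphate-buffered saline in place of HOCl, and their genotype field also reads HOCL, so the title was taken as the label of that group. The other groups were HOCl mice given the Gal-3 mAbs E07 or D11, or BPR21, an agent also known by its label only, with 12 mice each. The methods give sex, strain, age and induction without naming D06 or BPR21, and these facts are taken to hold for both groups. Groups were housed in separate cages, so an effect of the cage and an effect of the treatment cannot be told apart. The model reproduces skin and lung fibrosis after an oxidative insult, and blood taken at the end of the study reports on circulating cells and not on the skin.

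Blood RNA is a mixture. Red cell precursors and reticulocytes give transcripts for haemoglobin, heme synthesis and the membrane skeleton, platelets carry their own RNA, and each leukocyte class adds its receptors and granule proteins. Eosinophils are rare granulocytes that depend on interleukin-5 and enter tissue through the eotaxin receptor Ccr3. Monocytes of the patrolling class carry the fractalkine receptor Cx3cr1, and neutrophils are the main granulocytes. In bulk blood, more cells of a type and more RNA per cell cannot be told apart.

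Libraries held 12427021 to 15948972 counted reads in D06 mice and 11932855 to 15222080 in HOCl mice. The mean log2 total differed by -0.01 between the groups (permutation test, two-sided, p = 0.786, 12 and 12 mice), and the mean log2 size factor, a median-of-ratios scale that moves with depth and with the share taken by abundant genes, differed by -0.10 (permutation test, p = 0.549, 12 and 12 mice; the adjusted p over both tests was 0.786). D06 mouse 5 and HOCl mouse 7 had the lowest size factors, at 0.414 and 0.464, with totals inside the range of the other mice. They also had the highest share of counts on the red cell membrane, heme and reticulocyte lists of all 71 mice, at 23.0% and 22.0%, against at most 16.8% in any other mouse. The tissue label was borne out by its markers, since 20 of 20 T cell genes, 16 of 16 B cell genes and 20 of 21 red cell membrane genes were measured, against 1 of 15 skin and stroma genes. Mitochondrial genes took 6.63% to 12.1% of counts in D06 mice and 6.69% to 8.94% in HOCl mice, and globin genes 0.0343% to 1.63% and 0.071% to 0.353%.

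D06 mice differed from untreated HOCl mice in few genes. With limma on the deposited variance-stabilised (vst) values, 14 of 10508 genes (0.133%) passed a false discovery rate (FDR) of 0.05 and a fold change of 1.3, of which 8 were higher (0.0761%) and 6 lower (0.0571%) with D06. Among these 14 genes, the largest increase on vst values was that of Ccr3, at 2.25-fold, and the largest decrease that of Cx3cr1, at 1.78-fold. Fold changes on counts, given below, were larger for both genes, and there P2ry14 rose more than Ccr3. An unadjusted p under 0.05 was reached by 1338 genes (12.7%), and 47.8% of all genes had a positive log2 fold change, with a median of -0.01. Lgals3, which encodes Gal-3, did not pass, with a log2 fold change of -0.06 (SE 0.11, limma FDR = 0.868).

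Ccr3 (ENSMUSG00000035448, GRCm39 chromosome 9, 123822009 to 123831726, plus strand), the receptor for eotaxins on eosinophils, had vst values of 8.74, 10.2 and 11.15 as lowest, median and highest of 12 D06 mice, against 8.41, 8.98 and 9.48 in 11 HOCl mice. The groups overlapped, yet 8 of 12 D06 mice stood above every HOCl mouse and 11 above the HOCl median. D06 mouse 11 was the 1 under that median. The log2 fold change was 1.17 (SE 0.23, limma FDR = 0.039). In raw counts the median was 928.5 reads in D06 mice and 327.5 in HOCl mice.

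Camk1 (ENSMUSG00000030272, chromosome 6, 113311071 to 113321106, minus strand), a kinase switched on by calcium and calmodulin, was the only gene of 10508 (0.00952%) whose vst values did not overlap between the groups. Its values ran from 9.21 through a median of 9.5 to 10 in D06 mice, and from 7.64 through 8.92 to 9.17 in HOCl mice. All 12 D06 mice therefore lay above the highest HOCl mouse, and HOCl mouse 5 lay far below the rest of its group. The log2 fold change was 0.77 (SE 0.14, limma FDR = 0.0215).

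P2ry14 (ENSMUSG00000036381, chromosome 3, 59021276 to 59061134, minus strand), a receptor for UDP-sugars, ranged from 7.1 through 8 to 8.82 in D06 mice and from 6.26 through 7.06 to 7.63 in HOCl mice. Of 12 D06 mice, 10 exceeded the highest HOCl mouse, and D06 mice 4 and 12 stayed within the HOCl range. The log2 fold change was 0.91 (SE 0.19, limma FDR = 0.0411). Counts for this gene were low, with medians of 117.5 reads in D06 mice and 39 in HOCl mice.

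The other 5 genes that rose did so by 1.37-fold to 1.42-fold on vst values. Fam8a1, a factor of protein degradation at the endoplasmic reticulum, rose by 0.51 on the log2 scale (SE 0.10, limma FDR = 0.0402). Mat2a, the enzyme subunit that makes S-adenosylmethionine, had a vst median of 10.34 (9.99 to 10.63) in D06 mice and 9.91 (9.46 to 10.04) in HOCl mice. All but 2 of the 12 D06 mice lay above the HOCl range for Mat2a (log2 fold change 0.45, SE 0.09, limma FDR = 0.0309). Phf20l1, a reader of methylated lysines, rose by 0.46 (SE 0.10), and Thyn1, a nuclear protein first described in thymocytes, rose by 0.45 (SE 0.10). Rpl36a-ps1 rose by 0.47 (SE 0.10), but it is a pseudogene whose reads can be shared with Rpl36a, so its value is uncertain.

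**Figure D1:**
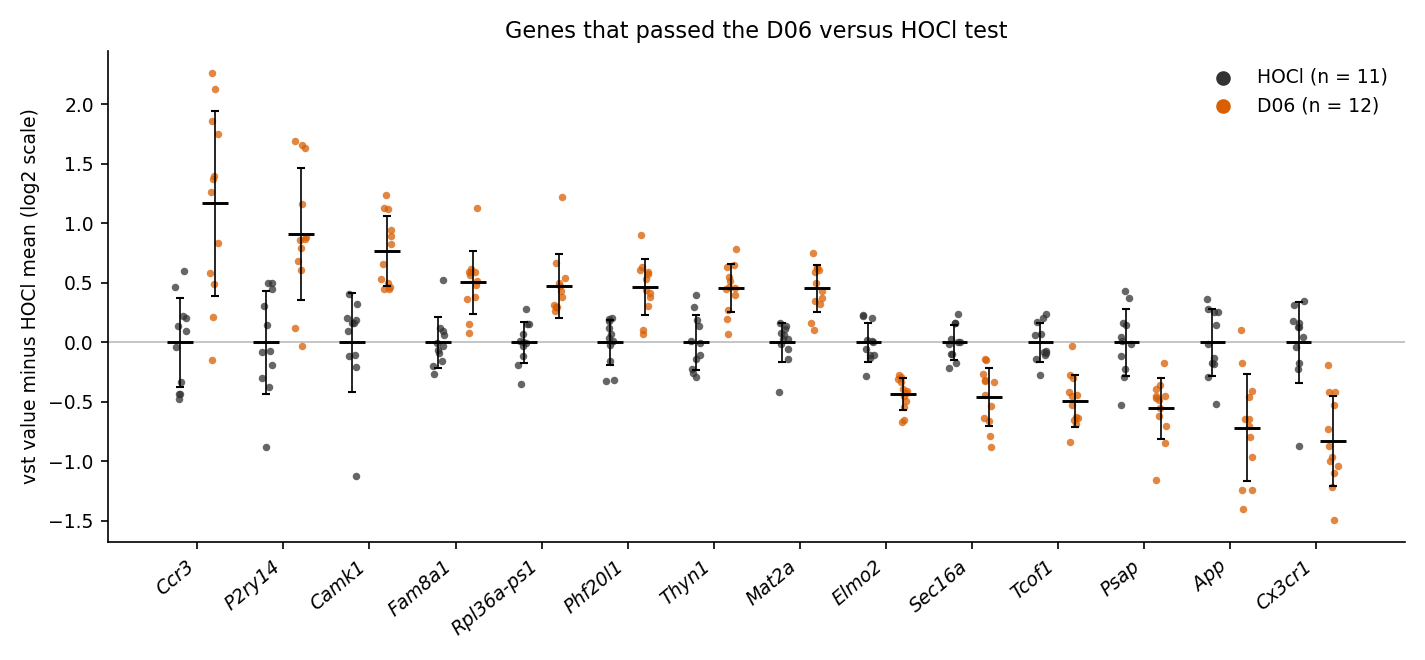
Values of the 14 genes that passed the test in each of 11 HOCl mice and 12 D06 mice, as vst values minus the HOCl mean of that gene (log2 scale), with the group mean as a bar and the SD as an error bar. Camk1 is the only gene whose 2 sets of points do not overlap, and Ccr3 and P2ry14 have the widest spread among D06 mice.

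Among the 6 genes that fell, Cx3cr1 (ENSMUSG00000052336, chromosome 9, 119877749 to 119898945, minus strand) had vst values of 7.24, 7.81 and 8.54 as lowest, median and highest in D06 mice and of 7.86, 8.85 and 9.08 in HOCl mice. All 12 D06 mice lay under the HOCl median and 6 lay under the lowest HOCl mouse, which was mouse 9. The log2 fold change was -0.83 (SE 0.14, limma FDR = 0.0215). The raw median was 98.5 reads against 311.5 reads.

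App (ENSMUSG00000022892, chromosome 16, 84746573 to 84971126, minus strand), the amyloid precursor protein, ranged from 7.89 through 8.61 to 9.39 in D06 mice and from 8.77 through 9.28 to 9.65 in HOCl mice. Of the D06 mice, 8 lay under the HOCl range, and mouse 5 was the 1 D06 mouse above the HOCl median. The log2 fold change was -0.72 (SE 0.15, limma FDR = 0.0402). Psap, the precursor of the saposins that help lysosomes break down sphingolipids, fell by 0.55 on the log2 scale (SE 0.11, limma FDR = 0.0402), with a vst median of 12.5 in D06 mice and 12.99 in HOCl mice.

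The remaining decreases were smaller but had the narrowest spread. Elmo2, an adaptor for Rac activation in cell movement and engulfment, had values of 8.61, 8.86 and 9 in D06 mice and 8.99, 9.28 and 9.5 in HOCl mice. A single D06 mouse reached the HOCl range, and the log2 fold change was -0.43 (SE 0.08, limma FDR = 0.0215). Tcof1, a nucleolar factor of ribosomal RNA synthesis, also had 11 of 12 D06 mice under the HOCl range, with a log2 fold change of -0.49 (SE 0.09, limma FDR = 0.0215). Sec16a, which organises the sites where vesicles leave the endoplasmic reticulum, fell by 0.46 (SE 0.09, limma FDR = 0.0402). Next in order by p, without passing limma, were Scarb1, a receptor for high-density lipoprotein (log2 fold change -0.51, SE 0.11, limma FDR = 0.0599, edgeR FDR = 0.0448), and Arhgef3, a guanine nucleotide exchange factor (-0.35, SE 0.08, FDR = 0.0729).

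The count table, which adds HOCl mouse 8, gave a longer list, but not without that mouse. With edgeR's quasi-likelihood test on 12 and 12 mice, 50 of 12444 genes (0.402%) passed the same thresholds, 22 higher (0.177%) and 28 lower (0.225%) with D06, and 13 of the 14 genes called on vst values were among them. The exception was Sec16a, with an edgeR FDR of 0.0587. With HOCl mouse 8 left out, edgeR called 10 of 12586 genes (6 higher, 4 lower), 9 of them among the 50. That is fewer than the 14 that limma called on the same mice. Fold changes on counts were larger, at 1.61 for Ccr3, 1.83 for P2ry14, 0.95 for Camk1 and -1.35 for Cx3cr1 on the log2 scale. The 1 called gene without vst values was Rps27a-ps3, a transcribed pseudogene on chromosome 6 (log2 fold change 1.09, edgeR FDR = 0.0487) whose reads can be shared with Rps27a.

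Some of the added genes are given here, picked after their values were seen. Ccl6, a chemokine of myeloid cells, had vst values of 12.18, 13.23 and 13.83 in D06 mice and 12.27, 12.47 and 12.94 in HOCl mice. Its log2 fold change on counts was 0.74 (edgeR FDR = 0.0448), and 8 of 12 D06 mice lay above the HOCl range while 1 lay under it. Lrg1 and Chil1, both abundant in neutrophils, fell by 1.09 and 0.88 on counts (edgeR FDR = 0.0487 and 0.0448). The co-chaperone Dnaja1 rose by 0.64 (edgeR FDR = 0.0348). Plcg2, an enzyme of B cell receptor and Fc receptor signalling, fell by 0.66 (edgeR FDR = 0.0448), as did Elmo1, the paralogue of Elmo2, by 0.42 (edgeR FDR = 0.0448).

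Eosinophil genes had the largest median of the cell type lists. Of 9 markers, 8 had vst values, 7 were higher in D06 mice and the median log2 fold change was 0.56, against -0.01 over all genes. Ccr3 alone passed limma, whereas Ccr3, Ear6, Siglecf and Alox15 passed edgeR (4 of 8), and 6 of 8 had an unadjusted limma p under 0.05 in the higher direction, against 5.78% of all genes.

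Siglecf, the sialic acid-binding receptor that marks mouse eosinophils, had vst values of 7.31, 8.32 and 8.73 in D06 mice and 7.24, 7.55 and 8.16 in HOCl mice. Alox15, a lipoxygenase of eosinophils and macrophages, had 8.72, 9.63 and 10.74 against 8.02, 8.75 and 9.78. Most D06 mice were high for both genes, but the groups overlapped, with 8 of 12 D06 mice above the HOCl range for Siglecf and 5 for Alox15. Their log2 fold changes were 0.59 (SE 0.15, limma FDR = 0.096, edgeR FDR = 0.0487) and 0.89 (SE 0.22, limma FDR = 0.0865, edgeR FDR = 0.0487). Ear6, an eosinophil-associated ribonuclease, had a log2 fold change of 0.80 (SE 0.21, limma FDR = 0.11, edgeR FDR = 0.0487), and reads of this gene can be shared with its near copies in the family.

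The granule protein gene Prg2 and the interleukin-5 receptor gene Il5ra, given here beyond the naming rule, were higher without passing. Their log2 fold changes were 0.54 (limma FDR = 0.123) and 0.42 (limma FDR = 0.294), both with an unadjusted limma p under 0.05. Not every member of the list followed. Ear2 had 0.17 and Cd244a -0.03, with FDR of 0.68 and 0.928. Epx, the eosinophil peroxidase and a defining marker, had 0 counts in 12 of 12 HOCl mice and in 11 of 12 D06 mice, and 8 counts in the other. The summed share of the list was 0.0078% to 0.0445% of counts in D06 mice and 0.0047% to 0.0202% in HOCl mice. As a mean over the list in each mouse, 9 of 12 D06 mice lay above the highest HOCl mouse, and D06 mice 4, 11 and 12 lay within the HOCl range.

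Monocyte genes had a median log2 fold change of -0.18, with 15 of 17 lower in D06 mice. Cx3cr1 was the 1 member that passed, and 5 of 17 had an unadjusted limma p under 0.05 in the lower direction, against 6.96% of all genes. With E07, D11 and BPR21, 15 of 17 monocyte genes were also lower than in HOCl mice, against 7 of 17 in control mice. Csf1r, the receptor for the monocyte growth factor CSF-1, had vst values of 8.88, 9.95 and 10.79 in D06 mice and 9.84, 10.39 and 11.04 in HOCl mice. The groups overlapped, with 5 of 12 D06 mice under the HOCl range, and the log2 fold change of -0.59 (SE 0.17, limma FDR = 0.142) did not pass. Nr4a1, the nuclear receptor on which patrolling monocytes depend, had -0.46 (SE 0.14, limma FDR = 0.144), with 8 of 12 D06 mice under the HOCl range.

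Neutrophil genes had a median of -0.30, with 15 of 18 lower and 0 called by limma or edgeR. At an unadjusted limma p under 0.05 stood 5 lower and 1 higher, against 6.96% and 5.78% of all genes. Over the same HOCl mice the list leaned lower in the other groups too, with 17 of 18 genes lower with E07 and with D11. The counts were 12 of 18 with BPR21 and 18 of 18 in control mice. Mmp8, a granule collagenase, had vst values of 8.29, 9.11 and 11.11 in D06 mice and 9.68, 10.08 and 11.99 in HOCl mice (log2 fold change -0.88, SE 0.27, limma FDR = 0.162). Lcn2, the siderophore-binding lipocalin, had -0.78 (SE 0.29, FDR = 0.239) and Mmp9 -0.55 (SE 0.17, FDR = 0.154). Retnlg, a resistin-like protein of neutrophils, went the other way, with 0.74 (SE 0.26, FDR = 0.211). Members of this list therefore differed in sign, and the spread among mice of both groups was wide.

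**Figure D2:**
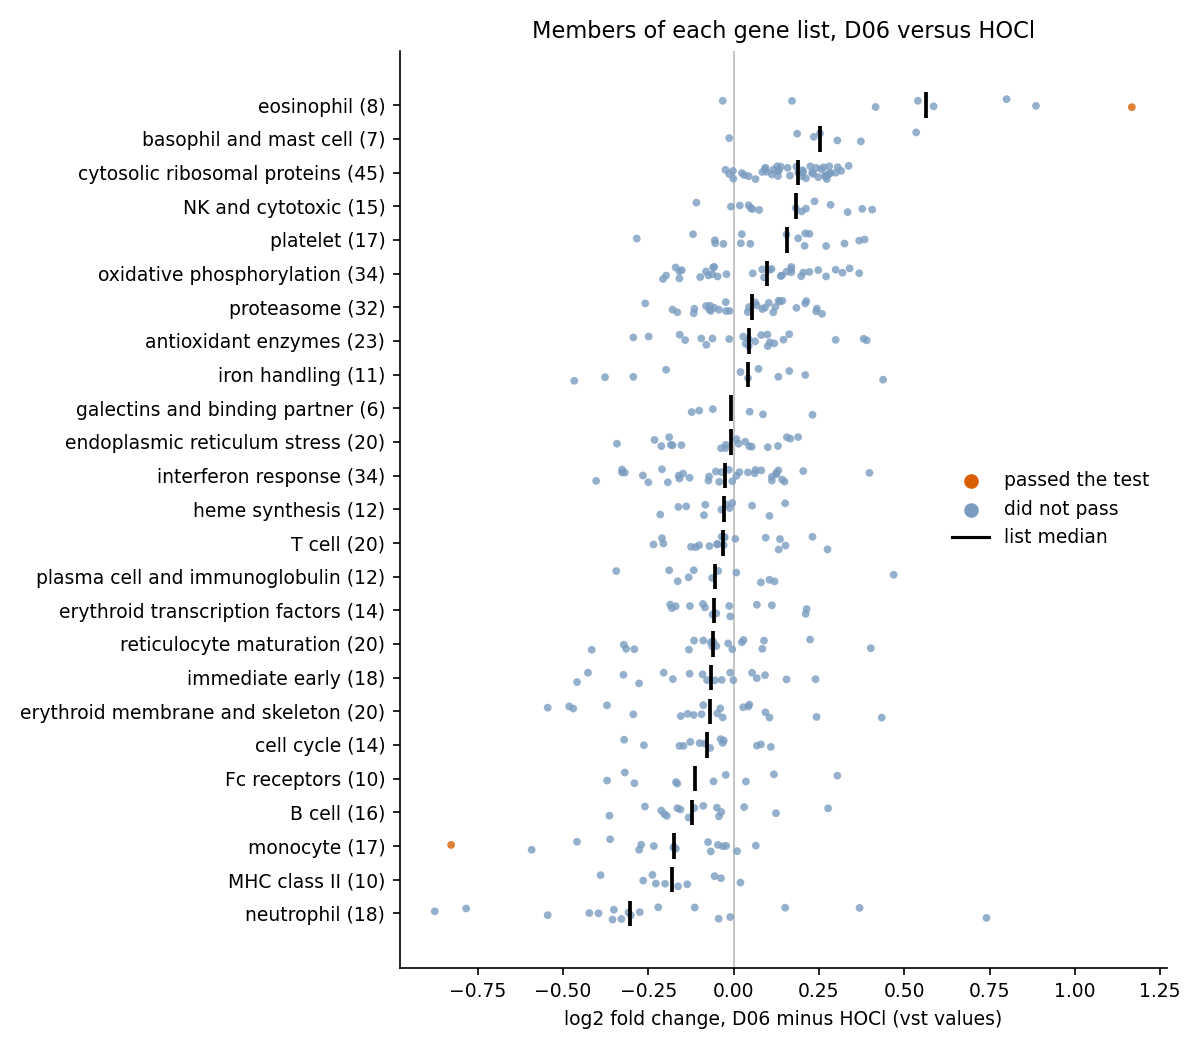
Log2 fold change of D06 minus HOCl (vst values) for each measured member of 25 gene lists, with the number of members in brackets, the list median as a black line and members that passed limma in orange. Ccr3 of the eosinophil list and Cx3cr1 of the monocyte list are the only members of these lists that passed limma.

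Ribosomal protein genes lay slightly higher in D06 mice. Of 45 cytosolic members, 41 had a positive log2 fold change, the range was -0.02 to 0.34 and the median 0.19, but 0 passed limma or edgeR. In the higher direction 16 had an unadjusted limma p under 0.05, against 5.78% of all genes. Over the same HOCl mice, 41 of 45 were also positive with D11, 40 with BPR21 and 35 with E07. Rps3 had vst values of 13.74, 14.24 and 14.67 in D06 mice and 13.68, 13.91 and 14.32 in HOCl mice (log2 fold change 0.31, SE 0.09, limma FDR = 0.161). The list mean of 11 of 12 D06 mice lay above the HOCl median, none above the HOCl range and 1 under it. Genes encoded by the mitochondrial genome, grouped after the values were seen, were all positive (13 of 13, median 0.44, 0 called by limma), in the same mice whose mitochondrial share of counts is given above. Of these, 7 had an unadjusted limma p under 0.05, against 5.78% of all genes in the higher direction. Positive members over HOCl were 12 of 13 with D11, 11 with BPR21 and 6 with E07.

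Cytotoxic lymphocyte and platelet genes leaned the same way without a call by limma or edgeR. DESeq2 on counts of the same genes, with HOCl mouse 8 included, called 2 NK and cytotoxic genes and 1 platelet gene higher. The list of NK and cytotoxic genes had a median of 0.18, with 13 of 15 positive. In the higher direction 4 of 15 had an unadjusted limma p under 0.05, against 5.78% of all genes. Gzma, a granzyme of cytotoxic cells, had vst values of 10.8, 11.5 and 12.28 in D06 mice and 10.63, 10.99 and 11.45 in HOCl mice (log2 fold change 0.41, SE 0.14, limma FDR = 0.209). Platelet genes had a median of 0.16 (12 of 17 positive), and basophil and mast cell genes 0.25 (6 of 7 positive), again with 0 called by limma or edgeR.

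Antigen presentation and B cell genes leaned lower. MHC class II genes had a median of -0.18 with 9 of 10 negative, and B cell genes -0.12 with 13 of 16 negative, and 0 passed limma or edgeR in either list. Ciita, the master activator of MHC class II genes, had -0.39 (SE 0.15, limma FDR = 0.245), and Pax5, the B cell identity factor, -0.36 (SE 0.13, FDR = 0.231). For both genes all 12 D06 mice lay under or at the HOCl median. Fc receptor genes had a median of -0.11, with 3 of 10 lower at an unadjusted limma p under 0.05, against 6.96% of all genes. Among them was Fcgrt, the receptor that protects circulating IgG (-0.32, SE 0.11, limma FDR = 0.199).

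The other lists centred near 0. Total-count scaling moved the median of all genes from -0.01 to -0.09, and the medians of the antioxidant, proteasome and iron handling lists to -0.04, -0.03 and -0.04. Antioxidant enzymes had a median of 0.04 (15 of 23 positive), with Gpx4, which clears lipid peroxides, at 0.38 (SE 0.11, limma FDR = 0.144) and Prdx1 at 0.30 (SE 0.10, FDR = 0.174). Medians were 0.05 for proteasome and 0.04 for iron handling genes, and 0.10 for oxidative phosphorylation, -0.01 for endoplasmic reticulum stress, -0.03 for T cell, -0.05 for plasma cell and immunoglobulin, -0.07 for immediate early and -0.08 for cell cycle genes. Interferon response genes had a median of -0.03 (15 of 34 positive), and the GTPase gene Ifi47 passed on counts (0.47, edgeR FDR = 0.0448) but not on vst values (0.40, SE 0.09, limma FDR = 0.0729). Galectins and the galectin-3 binding partner had a median of -0.01 over 6 measured genes of 9, and Lgals1 had 0.23 (SE 0.10, limma FDR = 0.358). Lgals3 itself had vst values of 10.53, 10.96 and 11.48 in D06 mice and 10.58, 11.09 and 11.38 in HOCl mice, with 9 of 12 D06 mice under the HOCl median.

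No red cell gene passed limma or edgeR between D06 and untreated HOCl mice, and the spread among mice was wide. DESeq2 on counts of the same genes, with HOCl mouse 8 included, called 1 membrane gene lower. Limma with a red cell score as covariate called 1 membrane and 1 reticulocyte gene higher. That score is the mean of scaled values over the membrane and heme lists. The membrane gene was thus adjusted for a score built from its own list, so its call is a difference relative to that list. Against HOCl, 20 measured genes of the membrane and skeleton had a median log2 fold change of -0.07 (-0.55 to 0.43), 12 heme synthesis genes -0.03 (-0.22 to 0.15), 14 erythroid transcription factors -0.06 and 20 genes of reticulocyte maturation -0.06. Ikzf1, a lymphoid and erythroid transcription factor, was the 1 member of these lists with an unadjusted limma p under 0.05 (log2 fold change -0.17, FDR = 0.376). With the mitochondrial share as a covariate the medians of the membrane, heme and reticulocyte lists turned to 0.22, 0.18 and 0.25. The mean of the membrane list over each mouse, relative to HOCl, was -0.09 ± 0.63 (SD, n = 12) in D06 mice and 0 ± 0.66 (SD, n = 11) in HOCl mice, while it was -1.14 ± 0.55 (SD, n = 11) in control mice and -1.23 ± 0.46 (SD, n = 12) in E07 mice.

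Direct fits set D06 against those groups. Against control, 828 of 10508 genes (7.88%) passed limma, 764 higher (7.27%) and 64 lower (0.609%) with D06, including 17 of 20 membrane genes (median 1.09), 18 of 20 reticulocyte genes (median 1.16) and 8 of 12 heme synthesis genes (median 0.72). Against E07, 1026 genes (9.76%) passed, 885 higher (8.42%) and 141 lower (1.34%), including 18 of 20 membrane genes (median 1.23), 18 of 20 reticulocyte genes (median 1.21) and 8 of 12 heme synthesis genes (median 0.58). Both fits use the same 12 D06 mice as the comparison with HOCl.

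Trim10, an erythroid ubiquitin ligase, had vst values of 12.09, 13.45 and 15.29 as lowest, median and highest in D06 mice and 9.73, 11.82 and 13.93 in 11 control mice (log2 fold change 1.86, SE 0.35, limma FDR = 0.00156). The HOCl median of this gene was 13.85, above the D06 median.

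D06 mice also differed from E07 mice in B cell and MHC class II genes, of which 14 of 16 and 9 of 10 were lower with D06 (medians -0.56 and -0.54). Cd22, an inhibitory receptor of B cells, had vst values of 9.87, 10.27 and 10.94 in D06 mice and 10.5, 11.07 and 11.34 in E07 mice, with 10 of 12 D06 mice under the E07 range (log2 fold change -0.69, SE 0.11, limma FDR = 8.3e-05). Interferon genes differed in part, with 7 of 34 higher in D06 mice than in E07 mice and the same number higher than in control mice. Isg15, a ubiquitin-like protein induced by interferon, had a median of 12.94 in D06 mice, 12.99 in HOCl mice, 11.36 in E07 mice and 11.24 in control mice.

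These 2 fits depend on the scaling. When each library was scaled to its total count, the median gene moved to -0.57 against control and to -0.60 against E07, and 7042 genes (292 higher) and 7792 genes (305 higher) passed. Relative to that shifted median, the membrane list stood at 1.33 and 1.56, the reticulocyte list at 1.22 and 1.24, and the B cell list at -0.29 and -0.63.

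**Figure D3:**
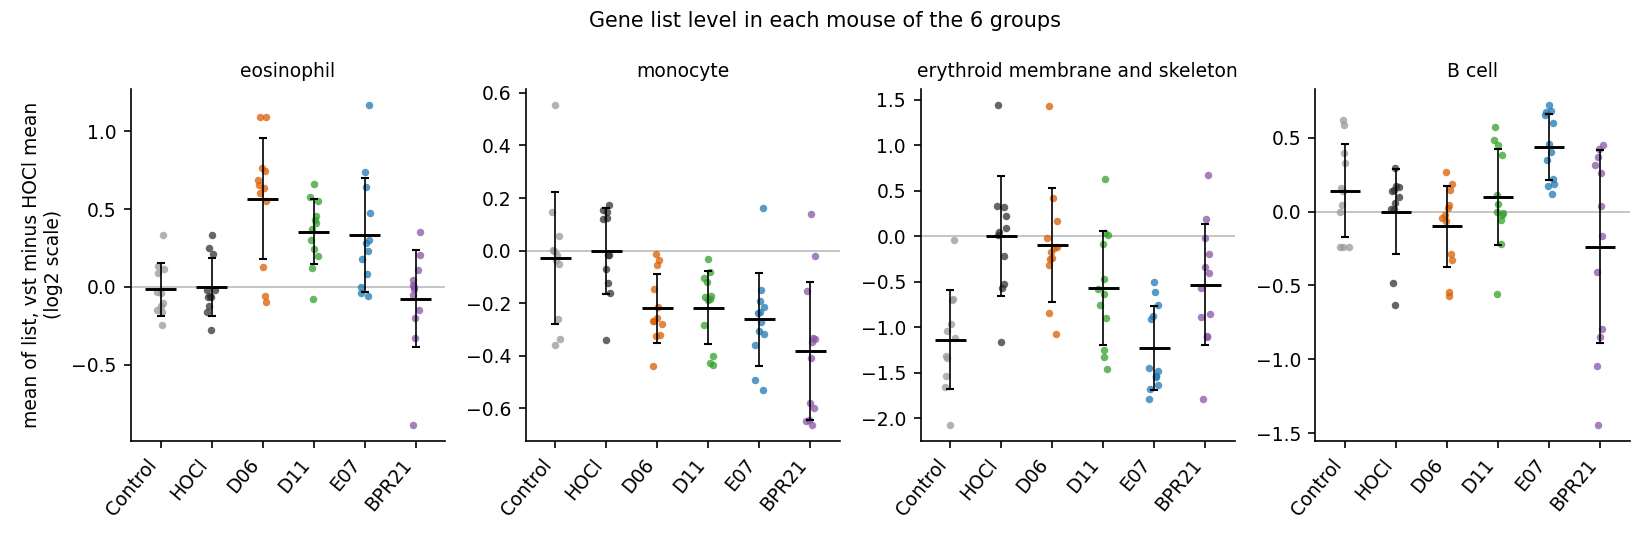
Mean of the eosinophil, monocyte, red cell membrane and B cell lists in each mouse of the 6 groups, as vst values minus the HOCl mean (log2 scale), with group mean and SD. D06 mice overlap HOCl mice for both the red cell list (-0.09 ± 0.63 against 0 ± 0.66) and the eosinophil list, where 9 of 12 D06 mice lie above the highest HOCl mouse (0.57 ± 0.39 against 0 ± 0.19).

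The 14 genes called in D06 mice were then followed in the other groups. Comparisons of each treatment with HOCl share the same 11 HOCl mice, so their values stand side by side and are not independent. Ccr3 had a log2 fold change over HOCl of 1.17 with D06, 0.90 with D11 (limma FDR = 0.0423), 0.67 with E07 (FDR = 0.00832), -0.04 with BPR21 and -0.06 in control mice. App had -0.72 with D06, -0.75 with D11 (FDR = 0.00287), -0.70 with E07 (FDR = 0.000129) and -0.64 with BPR21 (FDR = 0.0592). Cx3cr1 had -0.83 with D06, -0.87 with BPR21 (FDR = 0.00808), -0.43 with D11 (FDR = 0.103) and -0.36 with E07 (FDR = 0.0733). Mat2a had 0.45 with D06, 0.46 with D11 (FDR = 0.0168), 0.29 with E07 (FDR = 0.0137) and 0.56 with BPR21 (FDR = 0.023).

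Camk1 was the 1 gene of the 14 that passed the direct fits against both E07 and BPR21. Its vst values in the other groups were 8.44, 8.93 and 9.49 with E07, 8.51, 8.74 and 9.31 with BPR21, and 8.7, 9.29 and 9.65 with D11. By direct limma fits, D06 mice were higher than E07 mice by 0.61 (SE 0.13, FDR = 0.000878), higher than BPR21 mice by 0.69 (SE 0.12, FDR = 0.022) and higher than control mice by 0.97 (FDR = 0.000109). Against D11 the difference of 0.28 did not pass (FDR = 0.779). In the order of means, D06 (9.53 ± 0.30, SD, n = 12) was followed by D11 (9.25 ± 0.29, SD, n = 12), E07, BPR21, HOCl and control.

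Ccr3 in D06 mice (10.1 ± 0.78, SD, n = 12) was followed by D11 (9.78 ± 0.52, SD, n = 12) and E07 (9.56 ± 0.51, SD, n = 12). Ccr3 did not pass the direct limma fits of D06 against D11 and E07 (FDR = 0.889 and 0.168), which does not show equal levels. It was higher than in control mice by 1.23 (SE 0.22, FDR = 0.00118). For Cx3cr1, D06 mice (7.90 ± 0.38, SD, n = 12) and BPR21 mice (7.86 ± 0.47, SD, n = 12) were the lowest groups and differed by 0.04 (FDR = 0.962), while D06 mice lay under E07 mice by 0.47 (SE 0.14, FDR = 0.0209) and under control mice by 0.84 (SE 0.15, FDR = 0.00124). Eosinophil genes as a list had medians over HOCl of 0.56 with D06, 0.31 with D11, 0.30 with E07 and -0.07 with BPR21. As a summed share of counts the list had means of 0.0206% with D06, 0.0226% with E07, 0.018% with D11 and 0.011% with BPR21. Medians of that share were 0.0207% with D06 and 0.0197% with E07. The order of D06 and E07 therefore depends on the measure.

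**Figure D4:**
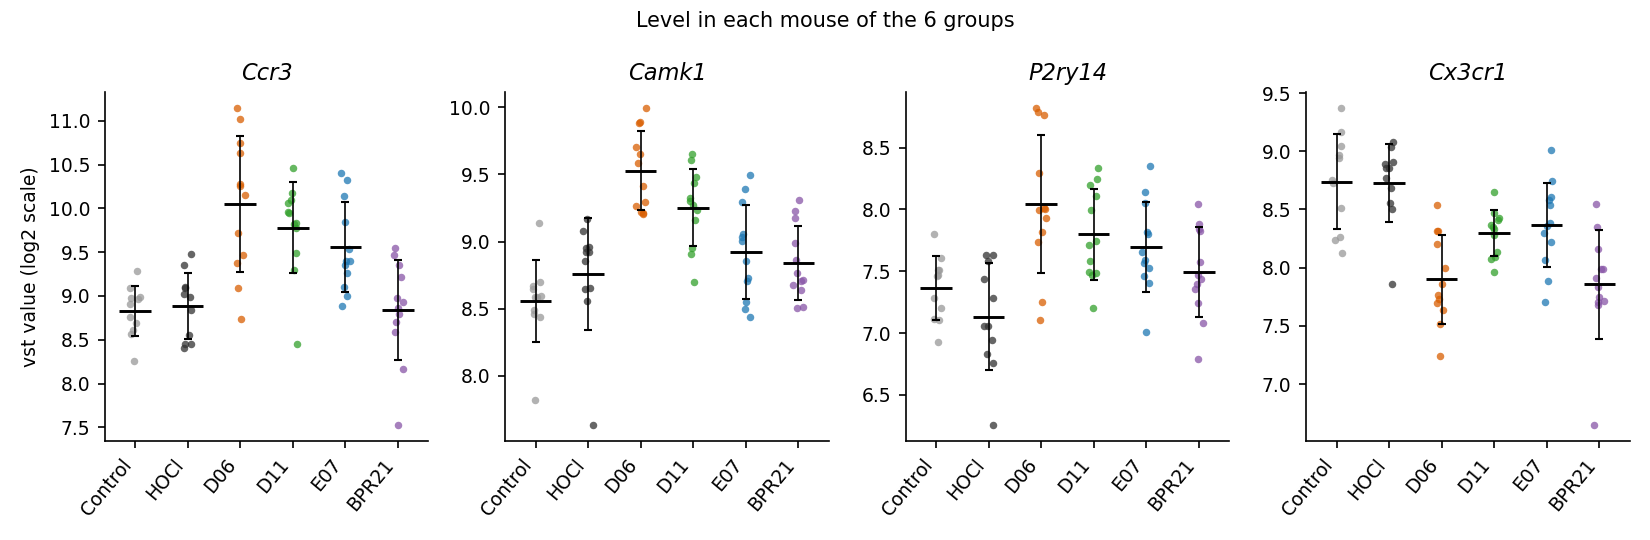
Vst values (log2 scale) of Ccr3, Camk1, P2ry14 and Cx3cr1 in each mouse of the 6 groups, with group mean and SD. Camk1 is highest in D06 mice (9.53 ± 0.30) and Cx3cr1 is lowest in D06 and BPR21 mice (7.90 ± 0.38 and 7.86 ± 0.47).

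Direct comparisons with the other agents gave few or no genes apart from E07. No gene passed between D06 and D11 mice by limma or by edgeR on the same genes (0.0% called; 655 genes had an unadjusted limma p under 0.05 and 603 in edgeR). The red cell membrane list had a median difference of 0.52, with 20 of 20 genes positive and 0 passing. Between D06 and BPR21 mice 6 genes (0.0571%) passed limma. Camk1, Crip1, Aif1, Gm21188 and Camp were higher with D06 (5 genes, 0.0476%), and Il7r, the interleukin-7 receptor of T cells, was lower (0.00952%). Crip1, a small LIM-domain protein, had vst values of 10.3, 10.57 and 10.91 in D06 mice and 9.26, 10.07 and 10.27 in BPR21 mice (log2 fold change 0.60, SE 0.11, limma FDR = 0.03). How many of all genes had no overlap between D06 and BPR21 mice was not counted, so the gap for Crip1 has no background share. Camp, the cathelicidin of neutrophil granules, differed by 1.19 (SE 0.24, limma FDR = 0.0495). The neutrophil list as a whole had a median of -0.09 against BPR21, with 7 of 18 genes higher in D06 mice and 11 lower.

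Single mice carried much weight in the count of genes against HOCl. With each mouse left out in turn, limma called between 0 genes (without HOCl mouse 2) and 69 genes (without D06 mouse 5), and edgeR between 7 (without D06 mouse 7 or HOCl mouse 2) and 145 (without D06 mouse 5). In every such limma fit the 14 genes kept their direction and an unadjusted p under 0.05. These genes were selected in the same mice, so that outcome was largely set by the selection. Cx3cr1 and Elmo2 passed in 22 of 23 limma fits, Camk1 in 20, Tcof1 in 19, Mat2a in 16 and Ccr3 in 11.

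Scaling and covariates moved the count as well. With libraries scaled to their total, limma called 0 genes (779 at an unadjusted p under 0.05; edgeR with totals called 9, of which 1 was higher and 8 lower), and with the mitochondrial share of each mouse as a covariate it called 0 (837 at an unadjusted p under 0.05). All 14 genes, selected in these same mice, kept their direction in both limma fits.

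**Figure D5:**
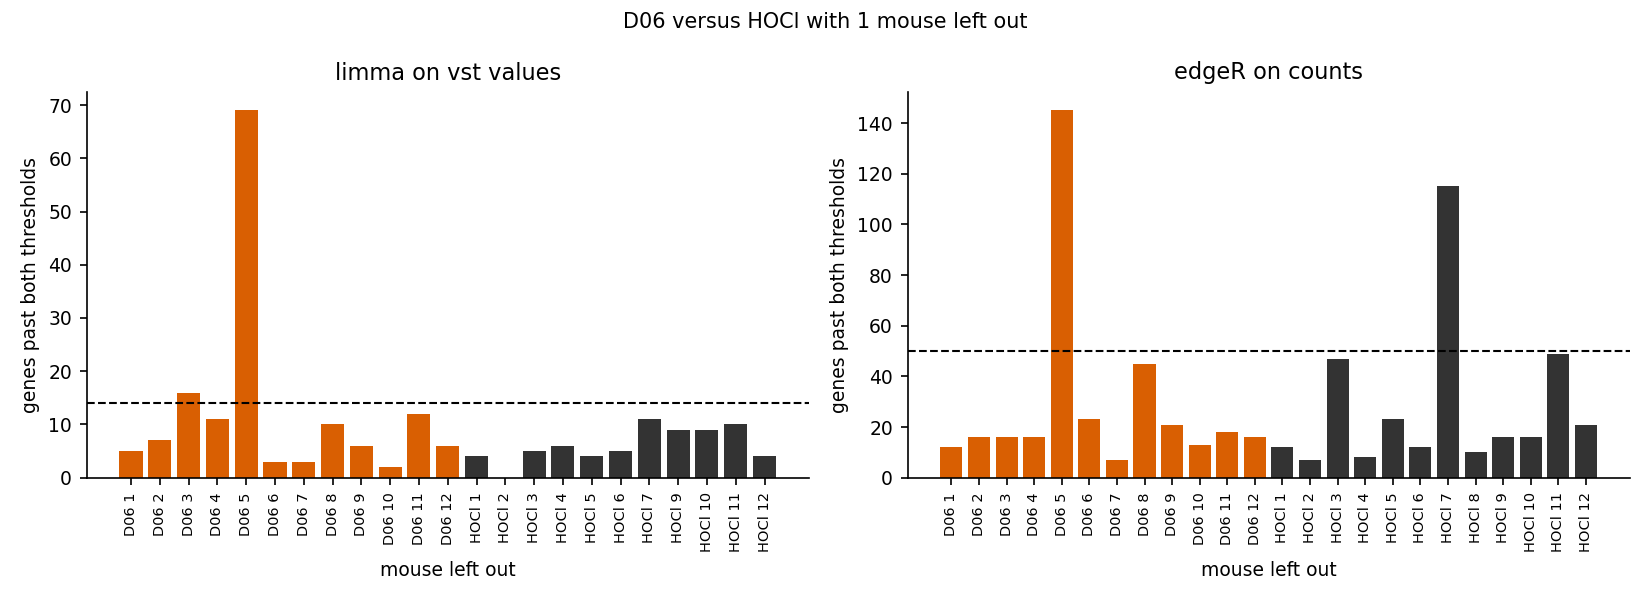
Number of genes past both thresholds in D06 versus HOCl when 1 mouse is left out, for limma on vst values (left) and edgeR on counts (right), with the count over all mice as a dashed line (14 and 50 genes). D06 mouse 5, the library of lowest size factor and highest red cell share, gives the highest bar in both panels.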

How the data were processed

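Whole blood RNA of 71 mice was sequenced as stranded, polyA-selected and globin-depleted libraries. Per the labels and the study's methods, the authors trimmed reads with cutadapt, aligned them to mm39 with STAR and deposited featureCounts counts per gene (55416 genes, 71 mice), and a second table of DESeq2 variance-stabilised values on a log2 scale (10508 genes after a protein-coding and low-level filter, 70 mice). The strand setting and annotation release are not given in the sources used here. Gene positions came from GENCODE on GRCm39.

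Groups were taken from titles. Main tests were limma 3.58.1 on the deposited log2 vst values, with the study's thresholds (FDR 0.05, fold change 1.3), and edgeR 4.0.16 (TMM, filterByExpr, quasi-likelihood) on counts, each with only the groups compared and Benjamini-Hochberg adjustment. A permutation test with 100000 resamples was used for library values. No pair of libraries agreed within sampling noise (smallest chi-square per degree of freedom 21.6). Scripts were tested on simulated data with genes drawn independently and, for limma, changes set on vst values. There limma recovered 65.7%, 98.5% and 100% of genes changed by 0.5, 1 and 2 in D06 versus HOCl, with 9 false calls. Named genes were all that passed limma, the next 2 lower genes by p, called genes without vst values, Lgals3, and up to 4 members of a list by p. The comparison, members and lists were chosen with earlier results of these data known. No sequence is shown, since the results are gene-level expression. Some single-gene values that the naming rule selects are not reported here.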

Additional observations from a re-analysis of the deposited data

Results flagged for a closer look

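Of the 14 genes called against HOCl, 2 also passed both thresholds in a direct test of D06 against another agent. Camk1 was higher in D06 mice than in E07 mice by 0.61 on the log2 scale (SE 0.13, limma FDR = 0.000878), while its change over HOCl was 0.77 with D06 and 0.16 with E07. Camk1 was also higher in D06 mice than in BPR21 mice by 0.69 (SE 0.12, limma FDR = 0.022), where the change over HOCl was 0.08 with BPR21. Cx3cr1 differed between D06 and E07 mice by -0.47 (SE 0.14, limma FDR = 0.0209), with changes over HOCl of -0.83 and -0.36. The HOCl mice cancel in each of these differences, so the direct fits rest on 12 and 12 treated mice. Both genes were picked on the same 12 D06 mice, so these fits are not independent of that choice.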

How the results depend on the processing

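On vst values, where 14 genes were called, limma gave 82 with all 6 groups in 1 fit and 42 with a red cell score as covariate. It gave 67 without D06 mouse 5 and HOCl mouse 7 together, and 5 without D06 mouse 1, which had the highest globin share. With total-count scaling or with the mitochondrial share as covariate it gave 0. For the same genes, edgeR and DESeq2 on counts gave 55 and 174. Those 2 fits also differ from limma in their mice, since they include HOCl mouse 8. The alternatives without named libraries together and with the mitochondrial share were chosen after seeing the data. On counts, where 50 were called, edgeR gave 9 with library totals, 10 without HOCl mouse 8, 288 with all 6 groups and 328 without D06 mouse 5 and HOCl mouse 7, and DESeq2 gave 218. With 1 mouse left out the range was 0 to 69 on vst values and 7 to 145 on counts, and 17 of 23 and 21 of 24 omissions moved the count by over 1.5 times. On vst values these were 69 without D06 mouse 5, 7 without D06 mouse 2, 6 without D06 mouse 9 or 12 or HOCl mouse 4, 5 without D06 mouse 1 or HOCl mouse 3 or 6, 4 without HOCl mouse 1, 5 or 12, 3 without D06 mouse 6 or 7, 2 without D06 mouse 10, 9 without HOCl mouse 9 or 10 and 0 without HOCl mouse 2. On counts, 145 and 115 were called without D06 mouse 5 and HOCl mouse 7, 45 to 49 without D06 mouse 8 or HOCl mouse 3 or 11, and 7 to 23 without each other mouse. The cause was not tested.

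Mice share replicate numbers across groups but are different animals. Deviations of same-numbered D06 and HOCl mice had correlations of -0.28 to 0.14 over 11 pairs, so no pairing by number was seen. These correlations span all genes and cannot show whether a smaller effect of the number exists. With the replicate number as a block, limma called 0 genes (1328 at an unadjusted p under 0.05) and edgeR 22 in D06 versus HOCl, and limma called 2 in D06 versus BPR21.

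Against BPR21, where 6 were called, 36 were called with all 6 groups in 1 fit and 0 with total-count scaling. Total-count scaling gave 7042 genes against control and 7792 against E07, and gave Fam8a1 -0.06 against control, where the median of all genes moved to -0.57. The counts against D11 stayed at 0 in the alternatives run. The differences in library total and size factor without HOCl mouse 8 were -0.03 and -0.11, and neither passed. In simulated data with genes drawn independently, edgeR recovered 13.8% of genes changed by 0.5 in D06 versus HOCl. That change was set on the log2 scale of counts, and 9 false calls were made over all change sizes. Limma was given its change on vst values, so its recovery is not comparable with that of edgeR.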
